A study of Mus musculus with 8 samples.

Results

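The NF-κB pathway and feedback genes described here are the NF-κB and Rel subunits, the IκB proteins, the kinases, adaptors and ubiquitin ligases that carry interleukin 1 and antigen receptor signals to them, the feedback inhibitors, and the surface proteins Icam1 and Cd83. The list held 36 gene symbols. The rule names them by symbol, but the list was drawn up with earlier results of these data known. A probe set assigned to 1 symbol alone was found for 32 of the 36, and all 32 passed the filter on dim signals, among 11128 genes tested in all. Nfkb1, Chuk, Irak4 and Traf3 are not analysed here. Where a gene had several probe sets, the one with the highest mean over the 8 arrays was used. Among the members this choice arose for Birc2 alone.

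RNA of mouse CD4+ T cells was hybridised to 8 Affymetrix arrays (Mouse Gene 1.0 ST), in a study of how steroid receptor coactivator-3 (SRC-3, encoded by Ncoa3) acts in pathogenic Th17 differentiation. All 8 samples were naive CD4+ T cells that had been stimulated through CD3 and CD28 and cultured with IL-1, IL-6 and IL-23, so all 4 groups share this stimulation. The SRC-3 experiment set cells of mice labelled SRC-3 (f/f) and called SRC-3 deficient beside wild-type cells, and the RORγt experiment set cells of RORgt (-/-) mice beside wild-type cells of its own. Each group held 2 arrays. No Cre driver is named for the floxed allele, no age or sex is given, and the titles call the 2 arrays of a group biological replicates without saying whether they came from separate mice. The p-values therefore measure the spread between these samples.

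NF-κB is a family of dimeric transcription factors that IκB proteins hold in the cytoplasm of resting cells. Interleukin 1 acts through Myd88, the Irak kinases, Traf6 and the kinase Map3k7 on the IκB kinases, which mark IκB proteins for degradation and so release the dimers, and the T cell receptor reaches the same kinases through Malt1. Among the genes the released dimers induce are several of their own inhibitors, such as Nfkbia and Tnfaip3. In T cells, Rel and the atypical IκB proteins Nfkbid and Nfkbiz are known for their part in Th17 differentiation.

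The promoters of 4 of the 7 genes whose transcripts fell without RORγt are shown, those with a motif match, so that a reader can see where NF-κB motifs lie in them. The windows of the other 3, Nfkbib, Tab2 and Zc3h12a, held no match. Each is a RefSeq window on GRCm38.p6 of 250 bases before and 50 after an annotated start, printed 5′ to 3′ on the strand of the gene. Capitals mark matches to the κB consensus (3 G, a purine, any 2 bases, 2 pyrimidines and 2 C) or to GGAAATTCC, both searched on both strands. The second motif was chosen after the promoters had been seen, and it overlaps the consensus in Nfkbia and Map3k7.
Nfkbia, chr12:55492598-55492897, minus strand: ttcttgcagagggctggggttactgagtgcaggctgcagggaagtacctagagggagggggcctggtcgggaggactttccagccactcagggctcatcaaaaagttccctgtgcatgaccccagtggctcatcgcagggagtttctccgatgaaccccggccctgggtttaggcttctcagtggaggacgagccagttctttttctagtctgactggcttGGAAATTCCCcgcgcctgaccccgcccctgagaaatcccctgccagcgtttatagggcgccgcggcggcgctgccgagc
Tnfaip3, chr10:19015361-19015660, minus strand: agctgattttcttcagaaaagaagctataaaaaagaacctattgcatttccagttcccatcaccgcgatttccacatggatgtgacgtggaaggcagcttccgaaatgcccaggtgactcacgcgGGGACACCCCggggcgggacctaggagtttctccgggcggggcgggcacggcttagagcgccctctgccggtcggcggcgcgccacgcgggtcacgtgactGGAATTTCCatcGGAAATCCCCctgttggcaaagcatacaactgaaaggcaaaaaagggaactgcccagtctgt
Tnip1, chr11:54962891-54963190, minus strand: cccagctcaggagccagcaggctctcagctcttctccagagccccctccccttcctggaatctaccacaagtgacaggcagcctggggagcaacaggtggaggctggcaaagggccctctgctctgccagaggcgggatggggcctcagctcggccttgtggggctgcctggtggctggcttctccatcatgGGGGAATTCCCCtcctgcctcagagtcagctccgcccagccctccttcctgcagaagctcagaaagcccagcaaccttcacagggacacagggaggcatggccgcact
Icam1, chr9:21015690-21015989, plus strand: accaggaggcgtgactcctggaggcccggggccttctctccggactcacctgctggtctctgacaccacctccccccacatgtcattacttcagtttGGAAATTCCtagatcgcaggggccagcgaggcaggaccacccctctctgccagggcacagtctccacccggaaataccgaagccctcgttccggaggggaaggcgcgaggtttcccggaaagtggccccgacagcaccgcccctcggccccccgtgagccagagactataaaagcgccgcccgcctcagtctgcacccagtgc

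The Ikbke promoter is shown as an example without a match, from one of the 2 members that rose without RORγt. Its window held no match to either motif, which says only that these letters are not in these 300 bases.
Ikbke, chr1:131279514-131279813, minus strand: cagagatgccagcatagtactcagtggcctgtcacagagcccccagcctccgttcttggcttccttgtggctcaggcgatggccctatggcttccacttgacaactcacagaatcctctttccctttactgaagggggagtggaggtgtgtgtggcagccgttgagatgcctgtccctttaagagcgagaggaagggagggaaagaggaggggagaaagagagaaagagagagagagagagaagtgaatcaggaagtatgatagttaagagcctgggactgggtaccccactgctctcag

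Shorter stretches are shown for Nfkb2, Rel and Bcl3. All 3 Nfkb2 windows held matches, and the stretch shown is from the window with the most. Overlapping Rel matches covered -92 to -82, and the Bcl3 match lay after the start, at 3 to 12.
Nfkb2, chr19:46304683-46304750, plus strand: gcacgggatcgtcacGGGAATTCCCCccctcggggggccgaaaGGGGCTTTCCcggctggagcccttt
Rel, chr11:23771036-23771076, minus strand: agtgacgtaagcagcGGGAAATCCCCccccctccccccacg
Bcl3, chr7:19822729-19822768, minus strand: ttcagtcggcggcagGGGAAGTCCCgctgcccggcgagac

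The Nfkbia match covered positions -29 to -20 from the start. Tnfaip3 held 3 matches, at -125 to -116, -24 to -16 and -12 to -3, and the middle one was GGAAATTCC read on the opposite strand. All lay in 1 of its 2 windows, and the other window held no match. Overlapping matches in Tnip1 covered -58 to -47, and the single match of Icam1 lay farther out, at -153 to -145. Among the 26 measured members with a RefSeq window, 11 (42.3%) held the κB consensus, beside 2581 of 27025 genes (9.55%) in the whole promoter table. GGAAATTCC was in 4 of the 26 (15.4%), namely Nfkbia, Tnfaip3, Icam1 and Map3k7, beside 103 of 27025 genes (0.381%). The consensus was in 3 of the 9 members called in that comparison (33.3%) and in 8 of the 17 not called (47.1%). Either motif was in 4 of the 9 (44.4%) and in 8 of the 17 (47.1%). A match is a description of the sequence and shows no binding.

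**Figure D1:**
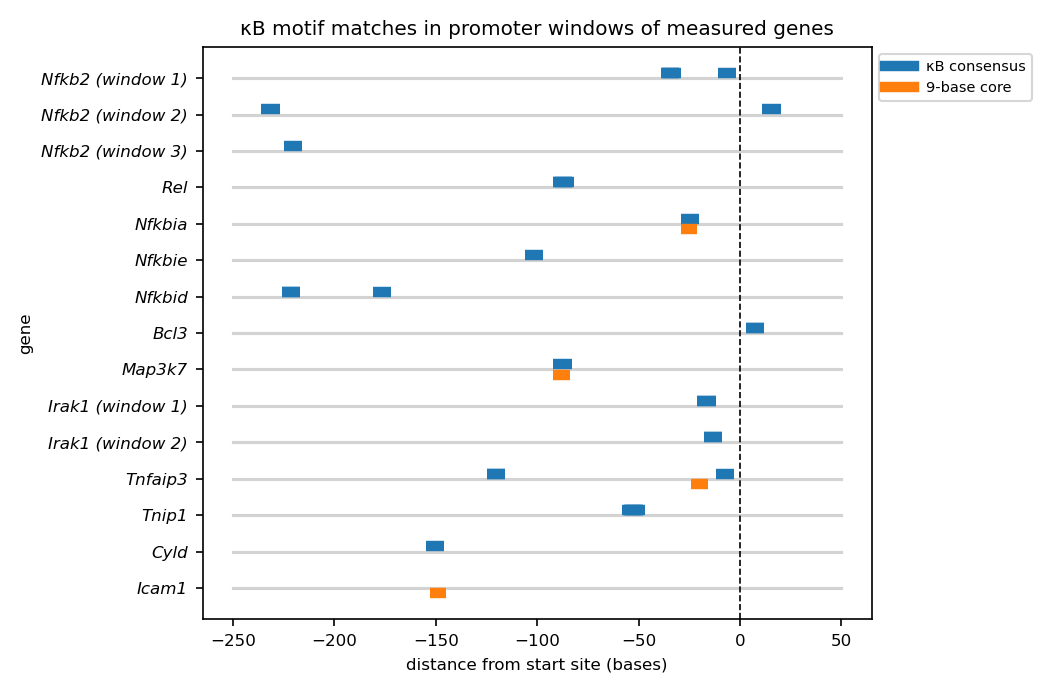
Positions of motif matches in the promoter windows of measured members, with distance from the annotated start in bases on the x axis. Each promoter window with a match has 1 line, so Nfkb2 and Irak1 have several. Tnfaip3 holds 3 matches, Nfkbia and Nfkb2 hold matches within 40 bases before the start, and the single Icam1 match lies at -153 to -145.

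The arrays carried a T cell signal, with all 8 measured T cell markers above the filter and their mean at 12.65 to 12.85 on the log2 scale on every array, while all 10 myeloid and dendritic cell markers lay below the filter. Of the markers of other cells, 5 of 7 for B cells, 5 of 6 for neutrophils, 4 of 5 for NK cells, 1 of 2 for CD8 T cells and 1 of 2 for gamma delta T cells lay below the filter. Array medians were 7.90 to 7.93 in the SRC-3 experiment and 7.76 to 7.80 in the RORγt experiment. Ncoa3 measured 11.15 and 10.97 without SRC-3 against 11.76 and 11.53 in wild type (a difference of -0.58, limma adjusted p = 0.0567). Xist, the transcript of the inactive X chromosome, was at 6.37 and 6.08 in RORγt-deficient cells and at 12.55 and 12.76 in their wild type, while Y-linked Eif2s3y was at 10.47 and 10.48 against 4.84 and 4.63. Sex and RORγt genotype therefore cannot be told apart in any RORγt result. SRC-3-deficient replicate 1 also stood apart, with Xist at 7.10 and Eif2s3y at 11.16, against Xist of at least 13.52 and Eif2s3y of at most 4.91 on the other 3 arrays of that experiment. The arrays measured RNA of whole cultures, so fewer cells of a type and less RNA per cell cannot be told apart.

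Without RORγt, transcripts of several inhibitors of NF-κB, of the upstream adaptor Tab2 and of Icam1 fell, while 2 other upstream signalling genes rose. Nfkbia, Nfkbib, Tnfaip3, Tnip1, Zc3h12a, Tab2 and Icam1 fell, by 0.23 to 0.59 on the log2 scale, and Ikbke and Myd88 rose by 0.47 and 0.24. These 9 of 32 members (28.1%) passed an adjusted p of 0.05 in limma, beside 19.4% of all genes tested. The members that fell were 7 of 32 (background 9.37%) and those that rose were 2 of 32 (background 10%). Over the 32 members the median log2 fold change was -0.02 (0.001 over all genes), and the median size of the change regardless of sign was 0.23 (0.13 over all genes). The deficient and wild-type arrays did not overlap for 20 members (62.5%, background 70%), of which 8 were higher (25.0%, background 35.8%) and 12 lower (37.5%, background 34.2%). The members thus moved in both directions and did not shift as a block.

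Without SRC-3, 0 of the 32 members passed the same threshold in limma, where 0.225% of all genes did. At an unadjusted p of 0.05, 10 members passed, beside 12.5% of all genes. Most values leaned upward: 24 members were higher and 8 lower than wild type, with a median log2 fold change of 0.10 (0.019 over all genes, of which 42.8% were negative). The values ran from -0.08 for Zc3h12a to 0.34 for Icam1, and no end of a 95% interval lay beyond -0.40 or 0.56. The groups did not overlap for 15 members (46.9%, background 37.2%), 12 of them higher without SRC-3 (37.5%, background 23%) and 3 lower (9.38%, background 14.3%). Without SRC-3-deficient replicate 1, the array whose sex-linked transcripts differed, 6 members had an unadjusted p under 0.05 (10.5% of all genes) and 0 passed. That fit has 1 deficient array, assumed to vary like the other groups, so a count of 0 there says little about that array.

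**Figure D2:**
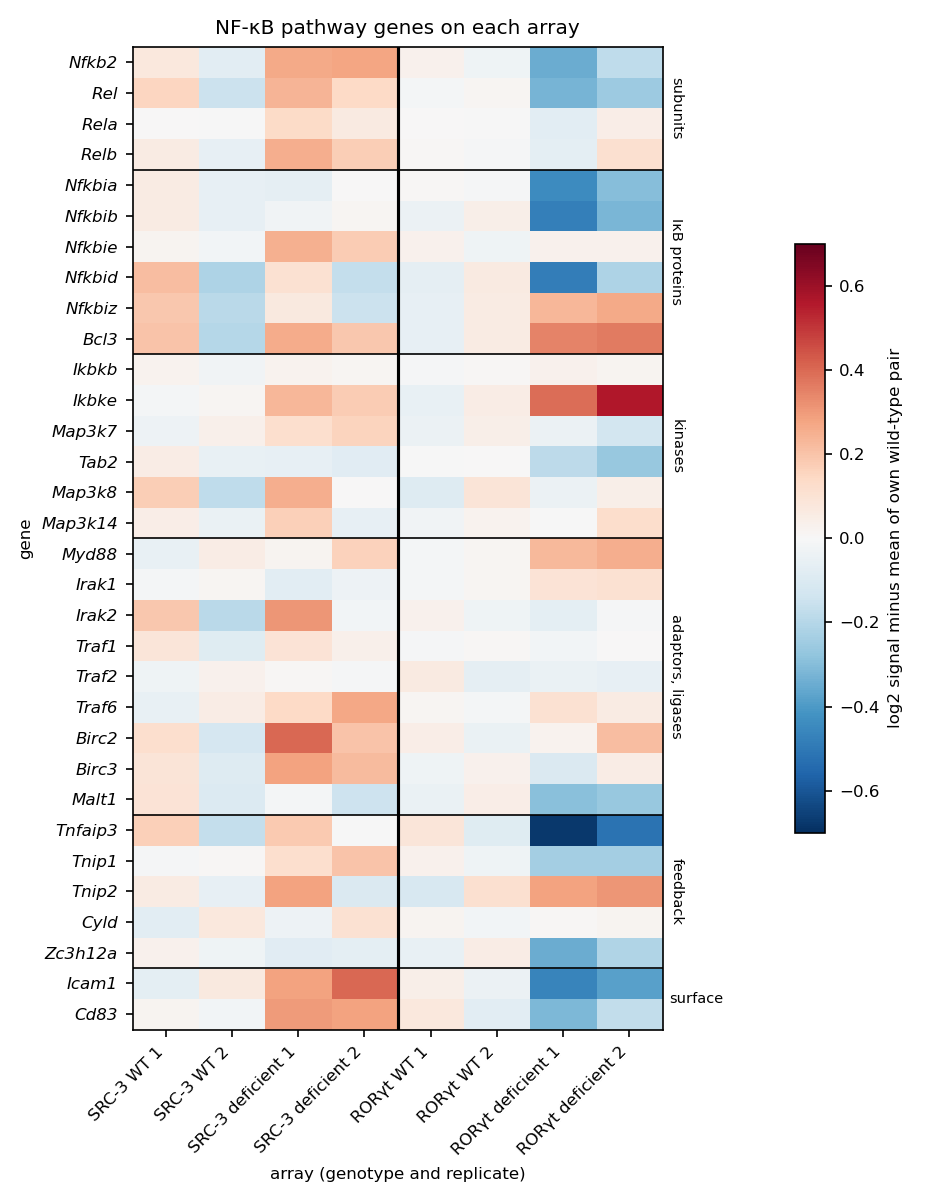
Deposited log2 signal of the 32 measured members on each of the 8 arrays, drawn as the difference from each gene's mean over the wild-type arrays of the same experiment, grouped by role. Nfkbia, Nfkbib, Tnfaip3, Tnip1, Zc3h12a and Icam1 lie below wild type on both RORγt-deficient arrays, and Ikbke lies above.

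Among the NF-κB and Rel subunits, none of the 4 measured genes passed the threshold in either comparison. Nfkb2, which encodes the precursor subunit of the non-canonical pathway, measured 11.30 and 11.31 in SRC-3-deficient cells and 11.11 and 10.96 in their wild type. In the other experiment it measured 11.24 and 11.41 without RORγt and 11.62 and 11.56 in wild type. The groups did not overlap in either experiment, and they differed in opposite directions. The log2 fold changes were 0.27 (SE 0.08, limma adjusted p = 0.233) without SRC-3 and -0.26 (SE 0.08, adjusted p = 0.0562) without RORγt, and their difference of 0.53 had an adjusted p of 0.0713.

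Rel, the c-Rel subunit that is prominent in lymphocytes, was at 11.47 and 11.54 without RORγt against 11.78 and 11.81 in wild type, without overlap. In the SRC-3 experiment its groups touched, at 11.91 and 11.81 against 11.82 and 11.52. The 2 SRC-3 wild-type arrays differed from each other by more than the group means did. Rela, the subunit of the classical dimer, ranged from 11.57 to 11.71 in the SRC-3 experiment and from 11.80 to 11.92 in the RORγt experiment, with log2 fold changes of 0.10 and -0.01. Relb, the partner of the Nfkb2 product, measured 9.53 and 9.45 without SRC-3 against 9.33 and 9.22 (0.22) and differed by 0.01 without RORγt.

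Of the 6 IκB proteins, Nfkbia and Nfkbib fell without RORγt, and none passed without SRC-3. Nfkbia, which encodes the IκBα protein that NF-κB itself induces, measured 11.87 and 12.01 without RORγt and 12.32 and 12.30 in wild type. Both deficient arrays lay below both wild-type arrays, a fall of 0.37 (SE 0.07, limma adjusted p = 0.0125) to 0.773 of the wild-type signal. In the SRC-3 experiment the same gene was at 12.13 and 12.20 against 12.25 and 12.14, and the groups overlapped (-0.03).

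Nfkbib, which encodes IκBβ, measured 12.37 and 12.53 without RORγt and 12.81 and 12.89 in wild type, a fall of 0.40 (SE 0.075, limma adjusted p = 0.0118). Its groups did not overlap there, whereas SRC-3-deficient arrays at 12.07 and 12.11 lay between the wild-type arrays at 12.15 and 12.04. Nfkbie, which encodes IκBε, measured 9.56 and 9.49 without SRC-3 against 9.33 and 9.29 (0.21, SE 0.06, adjusted p = 0.192), and differed by 0.03 without RORγt. The difference between the effects in the 2 experiments did not pass for any of the 3.

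The atypical, nuclear IκB proteins did not pass in either comparison. Nfkbid, which encodes IκBNS, was at 9.95 and 10.22 without RORγt against 10.37 and 10.50 (-0.35). Nfkbiz, which encodes IκBζ, was at 10.48 and 10.51 against 10.19 and 10.30 (0.25). Bcl3 was at 12.95 and 12.97 against 12.55 and 12.66 (0.35). In all 3 the groups did not overlap, with Nfkbid lower and the others higher. In the SRC-3 experiment the replicates of Nfkbid differed by more than the genotypes, at 9.72 and 9.45 against 9.83 and 9.40, and so did those of Nfkbiz, at 9.78 and 9.56 against 9.90 and 9.52.

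Of the 6 kinases measured, Ikbke rose and Tab2 fell without RORγt. Ikbke, an IκB kinase relative best known from interferon signalling, measured 11.64 and 11.81 without RORγt and 11.20 and 11.30 in wild type (0.47, SE 0.075, limma adjusted p = 0.00691), or 1.39 times the wild-type signal. It was also higher without SRC-3, at 11.67 and 11.61 against 11.42 and 11.45, without overlap but short of the threshold (0.21). Ikbke had the smallest adjusted p of the members. Tab2, an adaptor that ties Map3k7 to ubiquitin chains, measured 12.43 and 12.35 without RORγt and 12.61 and 12.62 in wild type (-0.23, SE 0.06, adjusted p = 0.0393).

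The core kinase Ikbkb had values from 9.92 to 9.97 in the SRC-3 experiment and from 10.02 to 10.06 in the RORγt experiment. Its 95% intervals were -0.105 to 0.146 without SRC-3 and -0.099 to 0.152 without RORγt. Map3k7, also called TAK1, differed by 0.14 and -0.08, and Map3k14, the kinase of the non-canonical pathway, by 0.05 and 0.06. Map3k8, also called Tpl2, differed by 0.13 and by less than 0.01, with wild-type replicates of 11.10 and 10.75 in the SRC-3 experiment.

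Among 9 adaptors and ubiquitin ligases, Myd88 rose without RORγt and the other 8 did not pass. Myd88, the adaptor of the interleukin 1 receptor, measured 12.15 and 12.18 without RORγt and 11.91 and 11.94 in wild type (0.24, SE 0.07, limma adjusted p = 0.0473), which is just inside the threshold. Malt1, the paracaspase of the antigen receptor pathway, was just outside it, at 12.35 and 12.38 against 12.60 and 12.69 (-0.28, adjusted p = 0.0516). Irak1, an X-linked kinase downstream of Myd88, measured 10.07 and 10.08 against 9.96 and 9.99 (0.10). Its groups did not overlap, on arrays whose sex-linked transcripts also differed.

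Without SRC-3, the ligases Birc2 and Birc3, which restrain the non-canonical pathway, had the largest log2 fold changes of this group. Birc3 measured 11.46 and 11.40 against 11.27 and 11.09 in wild type (0.25, SE 0.08, limma adjusted p = 0.283), and Birc2 measured 10.06 and 9.86 against 9.78 and 9.54 (0.30). The second probe set of Birc2 gave a difference of 0.03, so the Birc2 value rests on 1 of its 2 probe sets. Traf6, the ligase shared by interleukin 1 and CD40 signalling, measured 11.52 and 11.65 against 11.33 and 11.43 (0.20). Irak2, Traf1 and Traf2 differed by 0.14, 0.07 and 0.003 without SRC-3 and by -0.04, -0.01 and -0.05 without RORγt, and their groups overlapped in both experiments.

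Of the 5 feedback inhibitors, 3 fell without RORγt. Tnfaip3, which encodes the ubiquitin-editing enzyme A20, gave the largest change of any member, at 10.22 and 10.38 without RORγt against 10.98 and 10.81 in wild type. That is a fall of 0.59 (SE 0.127, limma adjusted p = 0.0184) to 0.664 of the wild-type signal. In the SRC-3 experiment Tnfaip3 was at 10.80 and 10.61 against 10.78 and 10.45, where the groups overlapped (0.09, 95% interval -0.204 to 0.386). The difference between the experiments was 0.68 and did not pass (adjusted p = 0.112).

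Tnip1, which binds A20 and assists it, measured 10.39 on both RORγt-deficient arrays and 10.66 and 10.60 in wild type (-0.24, SE 0.06, limma adjusted p = 0.0261). Without SRC-3 it measured 10.16 and 10.24 against 10.03 and 10.05, above wild type without overlap (0.16), and the difference of 0.40 between the experiments had an adjusted p of 0.0641. Zc3h12a, which encodes Regnase-1, a nuclease that degrades inflammatory mRNAs, measured 9.80 and 9.94 without RORγt against 10.10 and 10.20 (-0.28, SE 0.07, adjusted p = 0.0291). Its SRC-3 values were 9.42 and 9.43 against 9.53 and 9.47 (-0.08). Tnip2, a relative of Tnip1, did not pass, at 10.22 and 10.25 without RORγt against 9.83 and 10.05 (0.30). Cyld, a deubiquitinase that trims signalling ubiquitin chains, lay between 10.97 and 11.01 on all 4 arrays of that experiment.

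Both surface proteins lay on opposite sides of wild type in the 2 experiments. Icam1, an adhesion molecule and a classical NF-κB target, measured 10.47 and 10.59 without SRC-3 against 10.12 and 10.26, and 9.83 and 9.91 without RORγt against 10.33 and 10.25. The groups did not overlap in either experiment. The log2 fold changes were 0.34 (SE 0.075, limma adjusted p = 0.131) without SRC-3, which did not pass, and -0.42 (SE 0.075, adjusted p = 0.00976) without RORγt, which did. The difference of 0.76 (SE 0.11, adjusted p = 0.0205) made Icam1 the 1 member of 32 (3.12%) that passed this test, beside 1.67% of all genes.

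Cd83, a surface protein of activated lymphocytes and dendritic cells, measured 8.32 and 8.30 without SRC-3 against 8.04 and 8.0 (0.29, SE 0.075, limma adjusted p = 0.173). Without RORγt it measured 7.65 and 7.79 against 8.04 and 7.89 (-0.25, adjusted p = 0.0570), again without overlap in either experiment. Both RORγt-deficient values lie below the filter of 7.85, and the difference of 0.54 had an adjusted p of 0.0589. Besides Icam1 and Cd83, Nfkb2 and Tnip1 were above wild type without SRC-3 and below it without RORγt with no overlap, so that 4 of 32 members (12.5%) had this pattern, beside 3.82% of all genes. The 2 experiments have separate wild types, and the pattern was picked out after the values had been seen.

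**Figure D3:**
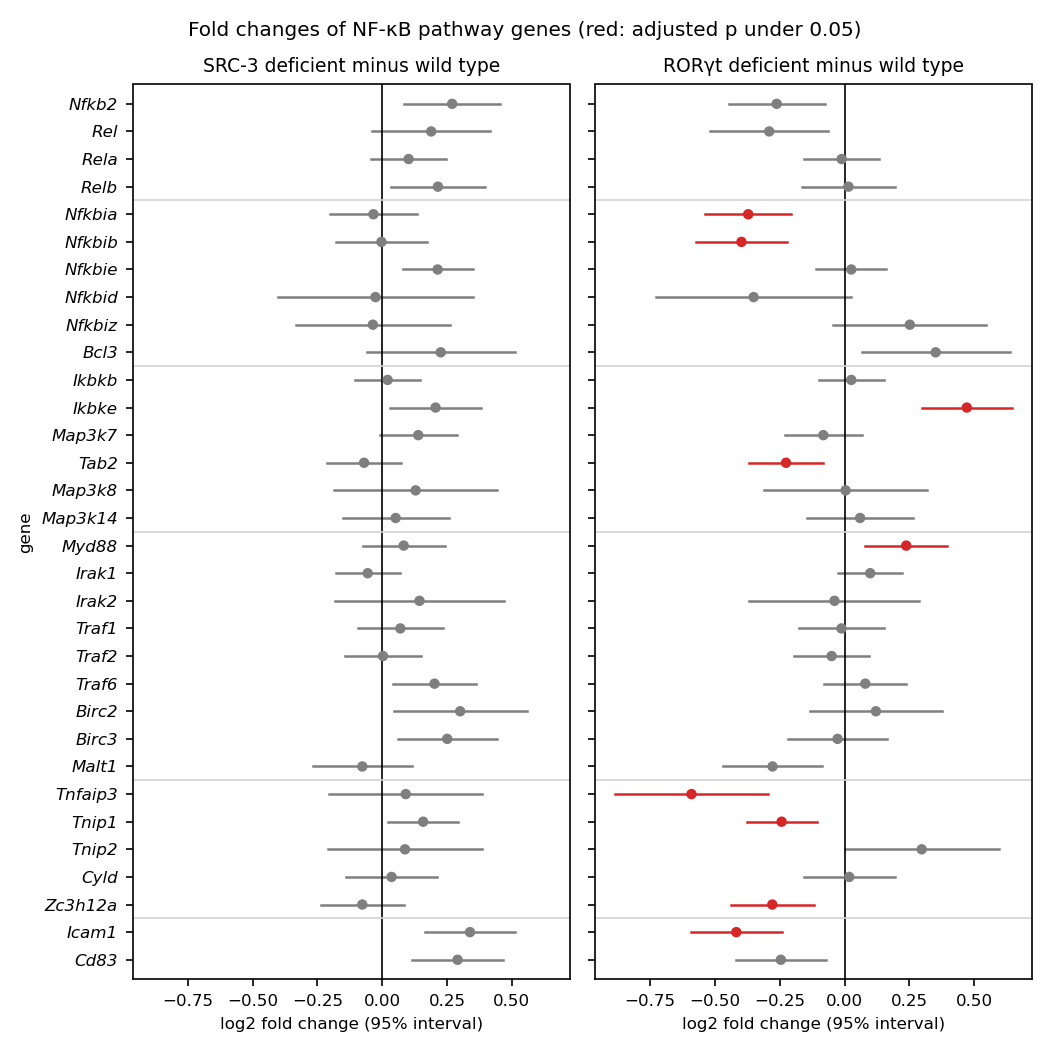
Log2 fold change of each measured member without SRC-3 and without RORγt, each against its own wild type, with 95% intervals of the moderated fit on the x axis and genes by role on the y axis. Red points passed an adjusted p of 0.05: 9 in the RORγt comparison and 0 in the SRC-3 comparison.

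**Figure D4:**
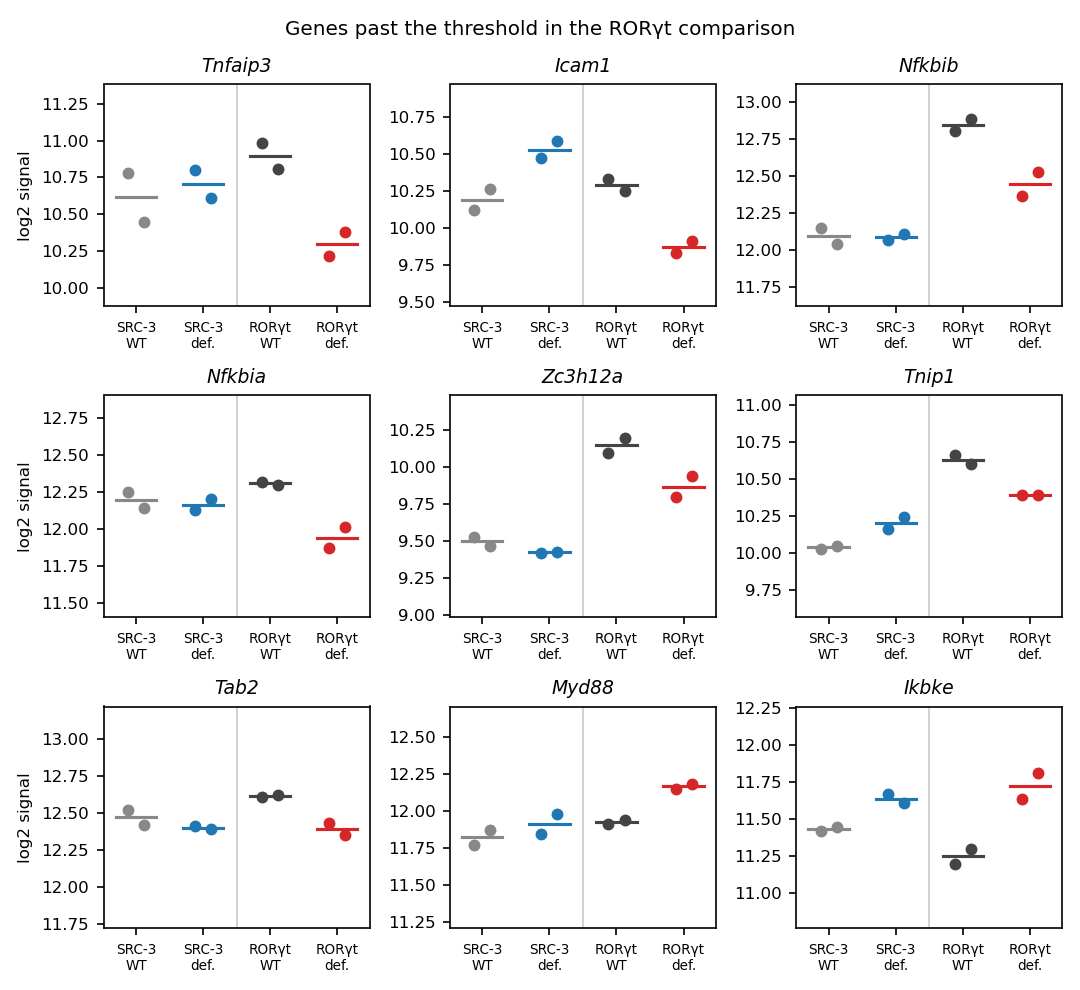
Deposited log2 signal (y axis) on each array, by group (x axis), for the 9 members that passed in the RORγt comparison, 1 panel per gene, with a bar at each group mean. In that experiment the 2 deficient arrays lie outside the wild-type pair in every panel, with Tnfaip3 at 10.22 and 10.38 against 10.98 and 10.81.

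The count of 9 members in the RORγt comparison depended on single arrays. Each omission leaves 1 array in a group, which is assumed to vary like the other groups. Without RORγt wild-type replicate 1, 0 members passed in limma and 5.63% of all genes did. At an unadjusted p of 0.05, 10 members passed there, beside 25.2% of all genes. Leaving out any other array of the RORγt experiment also lowered the member count, and it lowered the share of all genes that passed. The sizes moved less than the calls: over the same omissions the Nfkbia change stayed between -0.44 and -0.30, that of Tnfaip3 between -0.68 and -0.50, and that of Icam1 between -0.46 and -0.38. The Icam1 difference between the experiments was lost without SRC-3-deficient replicate 2 and without each of the 4 arrays of the RORγt experiment.

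The 2 RORγt-deficient arrays differed from each other for several members. Of the 7 members that fell, 5 (Nfkbia, Nfkbib, Tnfaip3, Zc3h12a and Icam1) were lower on deficient replicate 1 than on deficient replicate 2. Ikbke and Myd88, which rose, were lower there too (replicate 1 minus replicate 2 of -0.17 and -0.02). This was therefore not particular to the members that fell, and the share over all genes was not counted. For the 5 members, in the order named, replicate 1 minus replicate 2 was -0.14, -0.16, -0.16, -0.14 and -0.07 in deficient cells. In wild-type cells of that experiment it was 0.03, -0.08, 0.18, -0.10 and 0.08. The gaps of the wild-type pair were thus of similar size for Tnfaip3, Zc3h12a and Icam1, and smaller for Nfkbia and Nfkbib. Single markers of other cells also differed with RORγt genotype, without the rest of their lists. Of 7 measured B cell markers, Ebf1 was at 10.14 and 10.12 without RORγt against 11.37 and 11.54, and the other 6 differed by -0.21 (Cd79b) to 0.09 (Cd22), 5 of them below the filter. The summed B cell signal of 10.87 to 10.92 against 11.78 to 11.88 on the log2 scale is largely that of Ebf1. Of 5 NK cell markers, Klrd1 was at 8.92 and 8.61 against 7.01 and 6.71, and the other 4, all below the filter, differed by -0.08 (Klrb1c) to 0.16 (Gzma). Of 6 neutrophil markers, Ly6g was at 12.66 and 12.90 against 11.73 and 11.68 without passing (1.08), and the other 5 were below the filter. The part of other cells in the NF-κB values was not tested.

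In the SRC-3 experiment, many members differed by replicate number in the same way in both genotypes. Replicate 1 lay above replicate 2 in both genotypes for 19 of 32 members (59.4%), beside 28.7% of all genes. The mean gap was 0.35 for Nfkbid, 0.35 for Irak2, 0.31 for Map3k8, 0.30 for Nfkbiz, 0.26 for Tnfaip3, 0.25 for Tnip2 and 0.24 for Bcl3. Nfkbid, Nfkbiz and Tnfaip3 are known as genes that activation induces early. Nfkbia, which NF-κB also induces, had a mean gap of 0.03, from -0.06 in deficient and 0.11 in wild-type cells. The cause of the gaps was not tested. Replicate 1 lay below replicate 2 in both genotypes for 7 of the 32 members, beside 4581 of all 11128 genes. Cyld (-0.15), Icam1 (-0.13), Myd88 (-0.12) and Traf6 (-0.12) were among these.

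The 2 gaps, in wild type and in deficient cells, correlated across the 32 members with r = 0.757 (0.536 over all genes), where genes are not independent and all points share the same 4 arrays. In the RORγt experiment r was -0.02, and replicate 1 was the higher in both genotypes for 3 members (background 23.4%) and the lower for 15 (background 25%). What the replicate number stands for is not given in the labels. For Nfkbid and Nfkbiz, whose gaps were 0.35 and 0.30, the genotype differences were -0.03 and -0.04.

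**Figure D5:**
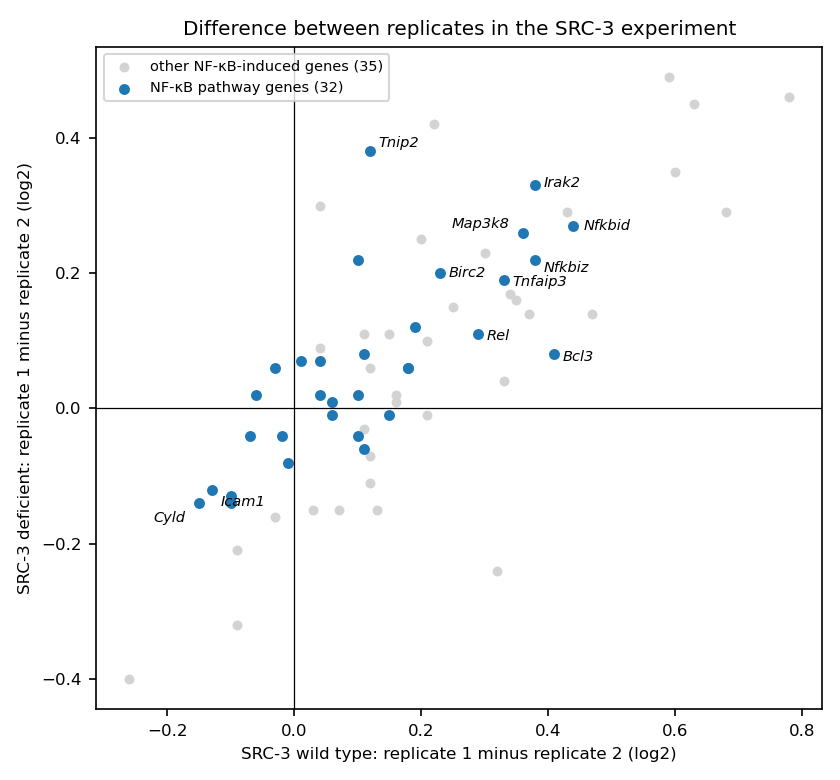
Replicate 1 minus replicate 2 (log2) in SRC-3 wild-type cells (x axis) and in SRC-3-deficient cells (y axis), for the 32 members in blue and 35 other NF-κB-induced genes in grey. Points in the upper right quadrant are higher on replicate 1 in both genotypes, which holds for 19 members, Nfkbid and Irak2 among those farthest out.

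Several members differed more between the 2 experiments than between genotypes. Wild-type Bcl3 was at 11.16 and 10.76 in the SRC-3 experiment and at 12.55 and 12.66 in the RORγt experiment, and wild-type Nfkbib at 12.15 and 12.04 against 12.81 and 12.89. Map3k7 went the other way, at 11.73 and 11.80 against 11.02 and 11.10, and so did Cyld, at 11.57 and 11.72 against 11.01 and 10.97. These 4 were chosen after their values were seen. The mice, the culture and the arrays of the experiments cannot be told apart here.

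Further genes of the pathway were read the same way, from a list of adaptors, ligases, receptors and regulators that are not members. Of 45 such signalling genes, 42 had a probe set and 41 passed the filter, Peli3 being the exception. Without SRC-3, 0 of the 41 passed in limma (background 0.225%), with a median of 0.06. At an unadjusted p of 0.05, 6 passed (background 12.5%). The smallest p-values belonged to Traf5 (0.31, adjusted p = 0.215), Nkiras2 (0.15, adjusted p = 0.325) and Tax1bp1 (0.17, adjusted p = 0.347). Without RORγt, 10 of the 41 passed (24.4%, background 19.4%), 7 higher and 3 lower, with a median of 0.09.

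Among these, Traf5, an adaptor of TNF receptor family members, measured 8.39 and 8.28 without RORγt against 7.69 and 7.54 (0.72, limma adjusted p = 0.00314), with both wild-type values below the filter. The NLR proteins Nlrc3 and Nlrc5, which are described as restraining innate signals, rose by 0.69 (adjusted p = 0.00298) and 0.51 (adjusted p = 0.0183). The Nlrc5 value is that of the brightest of its 19 probe sets. Il1rap, the shared chain of the interleukin 1 receptor, rose by 0.40 (adjusted p = 0.00542), in the same direction as Myd88, from wild-type values of 7.84 and 7.82 that also lie below the filter. Traf4 fell by 0.35 (adjusted p = 0.00659). Ube2n, a ubiquitin-conjugating enzyme that works with Traf6, fell by 0.31 (adjusted p = 0.0237) on the brightest of its 2 probe sets.

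Of 40 further genes known to be induced by NF-κB, 39 had a probe set and 35 passed the filter. Il6, Plau, Vcam1 and Nuak2 were below it. Without SRC-3, 0 of the 35 passed in limma (background 0.225%), with a median of 0.08. At an unadjusted p of 0.05, 6 passed (background 12.5%). The smallest p-values were those of the TNF family cytokines Lta (0.45, adjusted p = 0.0864) and Ltb (0.21, adjusted p = 0.296) and of the peptide transporter Tap1 (0.27, adjusted p = 0.325).

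Without RORγt, 12 of the 35 passed (34.3%, background 19.4%), 8 lower and 4 higher, with a median of -0.14. Csf2, which encodes the cytokine GM-CSF, was at 7.30 and 7.74 without RORγt against 8.70 and 8.49, a fall of 1.07 (limma adjusted p = 0.00369). Both deficient values lie below the filter of 7.85, so the size rests on dim signals. Gadd45b, a stress response gene, was at 9.41 and 9.40 against 10.18 and 10.10, a fall of 0.73 (adjusted p = 0.00173). Lta fell by 0.66 (adjusted p = 0.00342), the survival gene Bcl2l1 by 0.62 (adjusted p = 0.00560) and the cytokine gene Il21 by 0.59 (adjusted p = 0.00585).

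The target genes did not all fall. Irf1, an interferon response factor, was at 11.09 and 11.14 without RORγt against 10.61 and 10.49 and rose by 0.56 (limma adjusted p = 0.00641). These are the values of the brightest of its 2 probe sets. Without RORγt-deficient replicate 1 or either wild-type array of that experiment, fewer signalling genes and fewer induced genes passed. The signalling count also dropped without deficient replicate 2. In each of these fits fewer of all genes tested passed as well, and 1 group held a single array.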

How the data were processed

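Expression was measured on 8 one-colour arrays, 4 groups of 2, grouped by the sample labels. The deposited values are log2 signals that the authors summarised per probe set by RMA. The submitters' processing notes name Affymetrix Expression Console and no version. The genome build is not given in the sources used here. RMA makes the distributions of arrays alike, so a shift common to most genes would not be seen. Probe sets were named from the platform annotation: of 35556, 21789 had 1 symbol, 1621 several and 12146 none. Probe sets at or above the median of all values (7.85) on at least 2 arrays were kept and the brightest stood for its gene, which left 11128 genes. The number of arrays limits the precision.

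With limma 3.58.1 in R 4.3.3 (lmFit, eBayes), 1 mean per group was fitted over the 8 arrays, each deficient group was set against its own wild type, and the difference of the 2 effects was tested. Tests were two-sided, with Benjamini-Hochberg adjustment over all genes tested and a threshold of 0.05. The residual degrees of freedom were 4 and the prior ones 3.53. The procedure was tested on simulated data with independent noise. That test required recovery only of changes larger than any member showed, so it says little about changes of member size.

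The members and the lists of further genes were chosen with earlier results of these data known. Every member may be named. Fold change and adjusted p are given for members past the threshold, the 5 with the smallest p per comparison and, beyond this rule and after their values were seen, the RORγt values of Nfkb2, Malt1 and Cd83, which lay close to the threshold. Of the further lists, up to 6 genes past the threshold are named by smallest p, or otherwise 3. Promoter windows are those of RefSeq (GRCm38.p6), which held 26 of the 32 measured members. The alternatives were other normalizations, filters, probe set summaries, variance models, array weights, a replicate block, an adjusted p of 0.1 and leaving out each array.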

Additional observations from a re-analysis of the deposited data

Results flagged for a closer look

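Of the 108 tested genes of the 3 lists, 6 (5.56%) passed limma's test of the effect of SRC-3 deficiency minus that of RORγt deficiency (log2 scale, n = 2 arrays per group), beside 186 of all 11128 genes (1.67%). Icam1 gave 0.76 (SE 0.11, adjusted p = 0.0205), from 0.34 without SRC-3 and -0.42 without RORγt. Lta, a cytokine gene of the TNF family, gave 1.11 (SE 0.12, adjusted p = 0.00987), from 0.45 and -0.66. Csf2 gave 1.38 (SE 0.20, adjusted p = 0.0228), from 0.31 and -1.07. The Csf2 values of SRC-3 wild-type cells (7.70 and 7.67) and RORγt-deficient cells (7.30 and 7.74) lie below the filter of 7.85, so both effects rest on dim signals. Gadd45b gave 0.74 (SE 0.11, adjusted p = 0.0228), from 0.004 without SRC-3 (95% interval -0.171 to 0.179) and -0.73 without RORγt. Bcl2l1 gave 0.71 (SE 0.13, adjusted p = 0.0466), from 0.09 and -0.62. Nlrc3 was the only one of the 6 with the opposite sign, -0.81 (SE 0.12, adjusted p = 0.0228), from -0.13 and 0.69. None of the 6 passed in the SRC-3 comparison itself. Leaving out 1 of the 8 arrays at a time, the lone array of a group being assumed to vary like the others, Icam1, Csf2 and Gadd45b missed the threshold in 5 of 8 fits each. Lta missed it in 3, Nlrc3 in 6 and Bcl2l1 in 7, and the highest adjusted p was 0.189, for Bcl2l1. All 6 were lost without RORγt-deficient replicate 1 and without each RORγt wild-type array. All but Lta were also lost without SRC-3-deficient replicate 2, all but Lta and Csf2 without RORγt-deficient replicate 2, Nlrc3 and Bcl2l1 without SRC-3-deficient replicate 1, and Csf2 and Bcl2l1 without SRC-3 wild-type replicate 2. The sign held in each of these fits. Without either RORγt wild-type array, 15 of all genes passed this test in place of 186.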

How the results depend on the processing

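None of the member fold changes given with an adjusted p changed direction under any alternative run. In the SRC-3 comparison, 0 members passed under every alternative other than the replicate block. In the RORγt comparison, the member count of 9 became 16 with the 4 arrays of that experiment fitted alone (background 30.5% in place of 19.4%). It became 15 with array weights (background 33.1%) and 14 at an adjusted p of 0.1 (background 28.8%). The share of all genes that passed thus rose in each of these settings as well. Array weights gave 16 further signalling genes in place of 10. At an adjusted p of 0.1, the difference between the experiments gave 4 members in place of 1 (background 4.22% in place of 1.67%). At that threshold 1 induced gene passed without SRC-3 (background 1.16% in place of 0.225%). Leaving out 1 array at a time gave 0 to 13 members, 3 to 11 signalling genes and 5 to 13 induced genes in the RORγt comparison, and 0 to 4 members for the difference. Tab2 and Myd88 were the least stable: Tab2 missed the threshold with medians aligned (adjusted p = 0.0558) and Myd88 with a new quantile normalization (adjusted p = 0.0533), and both did without a filter (0.0720 and 0.0798, limma).

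The labels do not say that the replicate number pairs arrays, and same-numbered deviations correlated across genes with r = 0.536 in the SRC-3 and 0.002 in the RORγt experiment. With the replicate block, 1 member (Icam1, 0.34, limma adjusted p = 0.0418), 1 signalling gene and 2 induced genes passed without SRC-3. Of all genes, 2.7% did, in place of 0.225%. Without RORγt 16 members passed (background 30.7% in place of 19.4%), and 7 passed for the difference (background 8.49% in place of 1.67%). The block thus raised the calls over all genes as well. With 2 arrays a group, changes near the spread between replicates may not pass.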
